A study of Homo sapiens with 12 samples.

Results

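Peroxiredoxins and the enzymes that work beside them were examined in an RNA-seq experiment on leukemia cells overexpressing the phosphatase PTPN21 and treated with vincristine (VCR), a vinca alkaloid that blocks microtubule assembly. The genes were chosen by name: 6 peroxiredoxin genes (PRDX1 to PRDX6), thioredoxin (TXN), thioredoxin reductase (TXNRD1), glutathione peroxidase (GPX4) and copper-zinc superoxide dismutase (SOD1), 10 of the 60671 genes in the deposited table. All 10 were listed once and all 10 passed the filter on low values described below. There were 12 libraries in 4 groups of 3, all labelled Jurkat (a human line from a T cell leukemia) and all collected after 48 h. NC+DMSO and NC+VCR came from control cells, called WT in the labels and described in the study's methods as carrying the GFP vector. PTPN21+DMSO and PTPN21+VCR came from cells carrying a lentiviral, FLAG-tagged PTPN21 driven by the SFFV promoter. DMSO is the solvent control, and the VCR dose of these libraries was not given in the sources used here. Nothing in the labels says whether the 3 libraries of a group came from separate cultures, so p-values measure the spread between these libraries, which may be technical.

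Peroxiredoxins reduce hydrogen peroxide and organic peroxides through a reactive cysteine. The oxidized enzyme is typically returned to its working state by thioredoxin, which is in turn reduced by thioredoxin reductase with electrons from NADPH. PRDX1 and PRDX2 are cytosolic, PRDX3 is mitochondrial, PRDX4 is the secretory pathway form, PRDX5 is found in mitochondria, peroxisomes and the cytosol, and PRDX6 is the form with a single reactive cysteine that relies on glutathione rather than thioredoxin. SOD1 turns superoxide into hydrogen peroxide, and GPX4 is the glutathione-dependent selenoenzyme that reduces lipid peroxides in membranes and restrains ferroptosis. PRDX2 is also one of the most abundant proteins of red blood cells.

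The libraries were checked before the genes were compared. PTPN21 was at 0.0638 ± 0.0378 FPKM in the NC+DMSO libraries and 0.367 ± 0.205 in the NC+VCR libraries, against 8.82 ± 1.48 FPKM for PTPN21+DMSO and 5.74 ± 1.21 for PTPN21+VCR (SD, n = 3), so the construct followed its labels. Most markers of the labelled T cell type were low or listed at 0. Of 12 T cell line markers, 9 had a mean below 1 FPKM, of which LCK, CD28 and CD247 were listed at 0 in all 12 libraries and 6 were above 0 in at least 1 library, whereas CD3D (61.8 to 139.7 FPKM), PTPRC and TRBC1 were detected. GPX1, a broadly expressed gene, was also listed at 0 in 10 of 12 libraries. Whether a 0 in this table is a failed estimate was not tested. The sum of the 12 markers ran from 91.9 to 114 FPKM in NC+DMSO libraries and from 138 to 167 in NC+VCR libraries, against 133 to 154 for PTPN21+DMSO and 136 to 143 for PTPN21+VCR. None of 5 B cell markers and 2 of 5 myeloid markers passed the filter. Globin and other erythroid genes were abundant, with HBG2, a fetal globin, between 559.7 and 2985 FPKM, and 3 of 4 epithelial markers were detected (EPCAM, KRT8 and KRT18), of which both keratin genes were higher with VCR. The libraries are therefore called by their label and group, and no cell type is assigned to them. The submitters' processing notes name the mouse build mm10, while the gene identifiers of the table are human. FPKM, fragments scaled to gene length and library total, hold no counts, but the spacing of low values gave an estimate of 28700000 to 35600000 steps in the NC libraries and 40800000 to 47700000 in the PTPN21 libraries, where a step is 1 fragment or part of 1. Every PTPN21 library was deeper than every NC library, so depth and construct cannot be told apart. Replicates correlated across genes at r = 0.939 to 0.962 in NC+DMSO and 0.942 to 0.951 in NC+VCR. The PTPN21 groups agreed more closely, at 0.967 to 0.976 in PTPN21+DMSO and 0.970 to 0.972 in PTPN21+VCR.

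**Figure D1:**
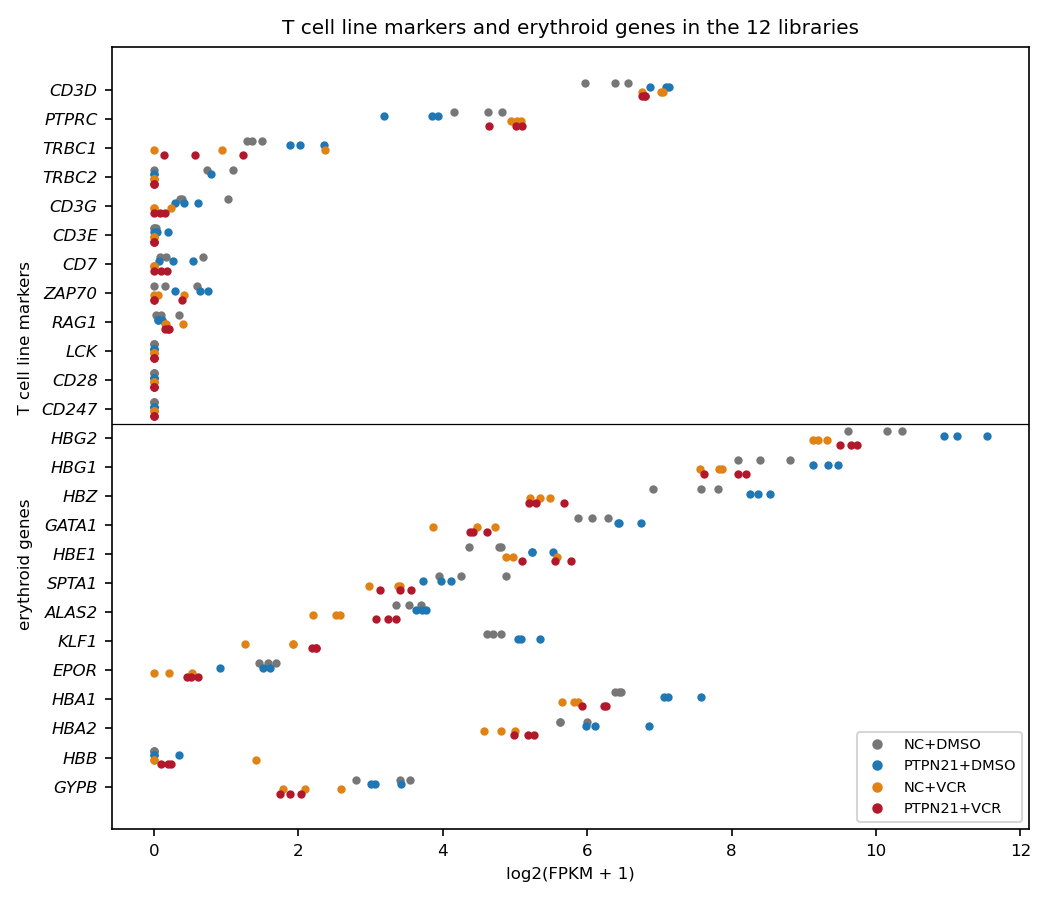
T cell line markers and erythroid genes in the 12 libraries. Each point is the log2(FPKM + 1) of one gene in one library, coloured by group. LCK, CD28 and CD247 are listed at 0 in every library, while HBG2 lies highest in the 3 PTPN21+DMSO libraries (1966 to 2985 FPKM) and lowest in the 3 NC+VCR libraries (559.7 to 637 FPKM).

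SOD1 was the most abundant of the 10 transcripts, with a mean of 670.0 FPKM over the 12 libraries (range, 531 to 767), and stood above GPX4 in every library. GPX4 followed at 252 FPKM (166 to 295), then PRDX1 at 216 (165 to 285) and PRDX5 at 193 (129.8 to 231). GPX4 exceeded PRDX1 in 11 of 12 libraries, but PRDX1 exceeded PRDX5 in only 8, namely all 6 DMSO libraries and 2 of the 6 VCR libraries, so their order depended on the group. PRDX2 had a mean of 137 FPKM and a range of 72.3 to 229, the widest fold range of the peroxiredoxins at 3.17. It lay below PRDX5 in 9 libraries and above it in the 3 PTPN21+DMSO libraries. PRDX4 (95.4 FPKM) and PRDX6 (95.1 FPKM) had nearly equal means, each being higher in 6 libraries, but PRDX6 was the higher in all 3 NC+DMSO libraries and PRDX4 in all 3 PTPN21+VCR libraries. TXN was at 81.1 FPKM (49.7 to 139). PRDX3 at 20.03 FPKM and TXNRD1 at 13.3 FPKM were the lowest, and TXNRD1 varied most of all, from 3.70 to 21.7 FPKM, a 5.87-fold range. These levels are scaled to gene length, but the annotation and the counting rule are not known, so comparisons between genes are approximate.

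**Figure D2:**
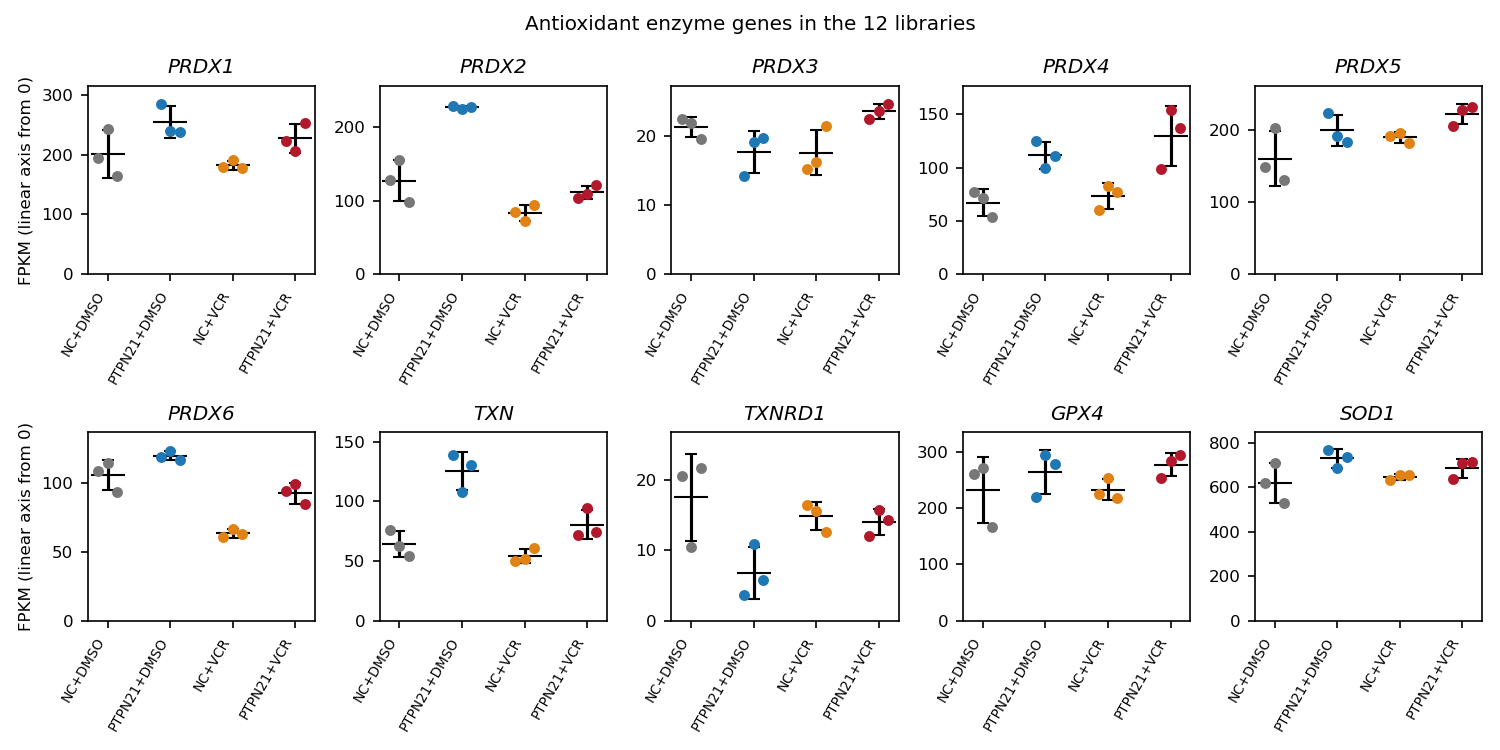
FPKM of the 10 genes in each of the 12 libraries, with a linear axis from 0 in each panel. Points are libraries, and the horizontal line and bar give the mean and SD of a group (n = 3). PRDX2 and TXN are highest in PTPN21+DMSO, where TXNRD1 is lowest.

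Tests were run with limma on log2(FPKM + 1), a scale that slightly understates the changes of low genes such as TXNRD1. The 11591 genes averaging at least 1 FPKM were fitted together, and the Benjamini-Hochberg adjustment covered all of them, with a threshold of 0.05. SE is the standard error of a log2 fold change. The comparisons share groups and are not independent of each other.

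The first comparison asked what VCR did in control cells. PRDX6 and PRDX2 fell, and the other 8 genes did not pass the test. PRDX6 was at 108, 114 and 93.5 FPKM in NC+DMSO and at 60.3, 66.7 and 63.1 FPKM in NC+VCR. The groups did not overlap, and the mean fell by 39.9%, from 105 ± 10.8 to 63.4 ± 3.18 FPKM (SD, n = 3). Its log2 fold change was -0.72 (SE 0.110, adjusted p = 0.000504 in limma). PRDX2 was at 128, 155 and 98.8 FPKM in NC+DMSO and at 83.9, 72.3 and 93.6 FPKM in NC+VCR. Here the highest treated library lay just under the lowest control library, and the log2 fold change was -0.59 (SE 0.153, adjusted p = 0.0111 in limma). That makes 2 of 10 genes past the threshold, both lower, where 36.2% of all genes tested passed, 28.3% as lower and 7.91% as higher. The same 2 were the only members without overlap, against 44.1% of all genes.

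For the 8 members that did not pass, the intervals differed in width. SOD1 was at 619 ± 89.1 FPKM in NC+DMSO and 647 ± 13.4 in NC+VCR (SD, n = 3), and the 95% interval of its log2 fold change ran from -0.16 to 0.31. GPX4 was at 233 ± 58.5 and 233 ± 18.5 FPKM (SD, n = 3), with a wider interval of -0.35 to 0.41. TXNRD1 gave the widest, -0.88 to 0.54. Its spread was estimated over all 4 groups, and within NC+DMSO replicate 2 (10.4 FPKM) lay below the other two (20.6 and 21.7 FPKM). The median log2 fold change of the 10 genes was -0.15, beside -0.36 over all genes tested and -0.24 over the 3662 genes at the members' own levels (13.3 to 670.0 FPKM), and 8 of 10 lay above the median of all genes.

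The zero point of these changes depends on the scaling of the libraries. With median ratio scaling, which moved the median of all genes to -0.04, PRDX6 (-0.33) and PRDX2 (-0.20) no longer passed, and PRDX5 (0.66) and SOD1 (0.46) passed as higher. Over all genes the share of calls that were higher went from 21.9% as deposited to 55.8%. It likewise went from 32.3% to 52.2% for VCR in PTPN21 cells, and from 41.8% to 73.6% for PTPN21+DMSO against NC+DMSO (21% with TPM scaling). PRDX6 and PRDX2 were the lowest of the 10 genes under all 4 scalings, and relative to the median of all genes in the deposited scale they lay at -0.36 and -0.23.

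**Figure D3:**
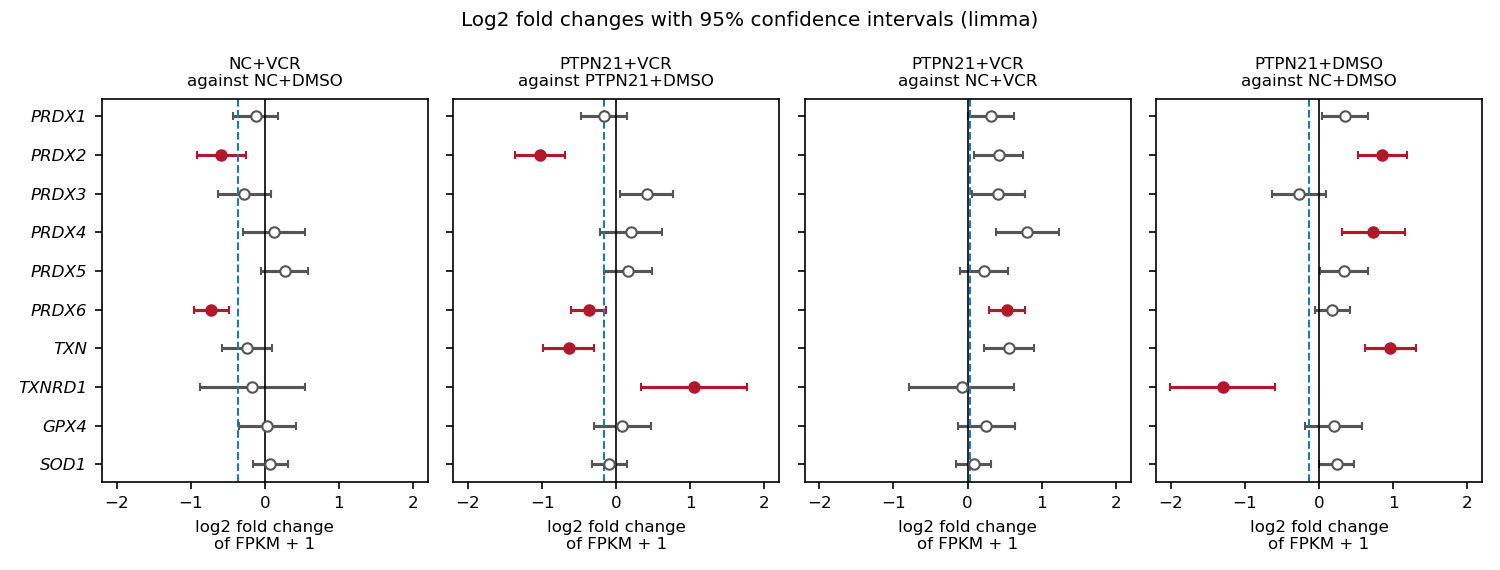
Log2 fold changes of log2(FPKM + 1) with 95% confidence intervals for the 10 genes in 4 comparisons. Filled red points passed an adjusted p of 0.05 in limma, open points did not, and the dashed line is the median of all 11591 genes. PRDX2 is low in both VCR comparisons, and TXNRD1 is on opposite sides of 0 between the panel of VCR in PTPN21 cells and that of PTPN21+DMSO against NC+DMSO.

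In cells with the PTPN21 construct, VCR was followed by lower PRDX2, TXN and PRDX6 and by higher TXNRD1. PRDX2 was at 229, 225 and 228 FPKM in PTPN21+DMSO and at 103, 109.5 and 121 FPKM in PTPN21+VCR. The mean fell by 51.1%, with a log2 fold change of -1.03 (SE 0.153, adjusted p = 0.000505 in limma). TXN was at 139, 108 and 130.3 FPKM without VCR and at 72.2, 94.3 and 74.5 FPKM with it, a log2 fold change of -0.64 (SE 0.158, adjusted p = 0.00984 in limma). TXNRD1, which reduces TXN, moved the other way, from 3.70, 10.9 and 5.73 FPKM to 12.1, 15.7 and 14.3 FPKM. All 3 VCR libraries lay above the untreated ones, and the log2 fold change was 1.05 (SE 0.327, adjusted p = 0.0314 in limma). PRDX6 fell from 119 ± 3.38 to 92.3 ± 7.46 FPKM (SD, n = 3), a log2 fold change of -0.37 (adjusted p = 0.0255 in limma).

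These were 4 of 10 genes, 3 lower and 1 higher, where 28.5% of all genes passed, 19.3% as lower and 9.22% as higher. PRDX3 also lay above in all 3 VCR libraries (22.5 to 24.6 against 14.1 to 19.8 FPKM), making 5 genes without overlap against 50.4% of all genes, but it missed the threshold (log2 fold change 0.41, adjusted p = 0.0853 in limma) and passed with median ratio scaling (0.60) and quantile normalization (0.57). PRDX2 passed under every setting tried, with log2 fold changes of -1.09 to -0.83. PRDX6 and TXN lost their calls with median ratio scaling (-0.18 and -0.45), and PRDX6 also with quantile normalization (-0.20) and without the intensity trend (adjusted p = 0.0671 in limma). TXNRD1 lost its call with no filter (adjusted p = 0.0955 in limma) and with the replicate block (adjusted p = 0.0516 in limma). The call of TXNRD1 ended without PTPN21+DMSO replicate 1 or 3 or without any 1 of the PTPN21+VCR libraries (5 of 12 fits that each left out 1 library), with log2 fold changes of 0.74 to 1.41 over the 12. The call of PRDX6 ended in 5 of the 12 as well, all of them leaving out a PTPN21 library, with -0.39 to -0.31 in those 5. PRDX1, PRDX4, PRDX5, GPX4 and SOD1 had log2 fold changes between -0.16 and 0.20.

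Without VCR, the PTPN21 libraries differed from the control libraries in 4 of the 10 genes. TXN, PRDX2 and PRDX4 were higher and TXNRD1 was lower. TXN rose from 75.7, 62.9 and 54.5 FPKM in NC+DMSO to 139, 108 and 130.3 FPKM in PTPN21+DMSO, a log2 fold change of 0.96 (SE 0.158, adjusted p = 0.0100 in limma). PRDX2 rose from 127 ± 28.0 to 227 ± 2.17 FPKM (SD, n = 3), a log2 fold change of 0.86 (SE 0.153, adjusted p = 0.0127 in limma). PRDX4, the peroxiredoxin of the secretory pathway, rose from 77, 71.4 and 53.1 FPKM to 125, 99.2 and 110.4 FPKM, a log2 fold change of 0.73 (SE 0.193, adjusted p = 0.0448 in limma). For these 3 genes no library of one group reached the other.

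TXNRD1 fell from 17.6 ± 6.21 to 6.78 ± 3.72 FPKM (SD, n = 3), with a log2 fold change of -1.30 (SE 0.327, adjusted p = 0.0397 in limma). This is the only called difference in which the libraries overlapped: NC+DMSO replicate 2 was at 10.4 FPKM and PTPN21+DMSO replicate 2 at 10.9 FPKM. Among all genes 6.34% passed in this comparison, 2.65% as higher and 3.69% as lower, and 33.4% had groups that did not overlap, against 4 of the members (the 3 called as higher, and PRDX6 at 93.5 to 114 against 116 to 123 FPKM). The median log2 fold change of the members was 0.29, beside -0.14 over all genes and -0.06 over genes at their levels. PRDX1, PRDX5 and SOD1 had unadjusted p-values of 0.0281, 0.0419 and 0.0445 in limma and did not pass after adjustment.

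Single libraries carried weight in this comparison. NC+DMSO replicate 3 was the lowest library of its group for 9 of the 10 genes. Without it 2 members passed, without PTPN21+DMSO replicate 1 none did, and without NC+DMSO replicate 2 there were 6, PRDX1 and PRDX5 being added. TXN and PRDX2 each passed in 11 of 12 such fits, PRDX4 in 4 (0.58 to 0.84 in the 8 without a call) and TXNRD1 in 5 (-1.30 to -0.99 in the 7 without one, which left out NC+DMSO replicate 1 or 3, PTPN21+DMSO replicate 1 or 3 or any PTPN21+VCR library). PRDX4 was also lost with TPM scaling (0.59), no filter, no intensity trend, only the groups compared in the fit, or the replicate block. TXNRD1 was lost with median ratio scaling (-1.12), no filter, no intensity trend, only the groups compared or the replicate block. With only the groups compared, TXN and PRDX2 were lost too (adjusted p = 0.0643 and 0.0715 in limma).

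Erythroid genes, a list chosen after the data were seen, are set beside PRDX2 because it is abundant in red blood cells. The summed FPKM of its 13 genes was 1460.2 to 2294 for NC+DMSO and 984 to 1035 for NC+VCR. It was 3310.4 to 4591 for PTPN21+DMSO and 1218 to 1401 for PTPN21+VCR. Of 12 tested, 11 fell with VCR in control cells, 9 fell with VCR in PTPN21 cells, and 4 rose in PTPN21+DMSO against NC+DMSO, where 28.3%, 19.3% and 2.65% of all genes were called in these directions. The list was picked from these data, so its counts cannot be weighed against those shares. With median ratio scaling 7 fell and 1 rose with VCR in control cells, 9 fell with VCR in PTPN21 cells and 5 rose in PTPN21+DMSO. PRDX2 was called in the same direction in these 3 comparisons (not with median ratio scaling in control cells), whereas TXN was called only in the last 2 of them and had a log2 fold change of -0.24 with VCR in control cells (adjusted p = 0.250 in limma). HBZ, an embryonic globin, showed log2 fold changes of -2.08, -3.00 and 0.95 in these comparisons (adjusted p = 3.22e-05, 2.1e-06 and 0.0267 in limma). HBE1, by contrast, had positive values with VCR in both backgrounds (0.49 and 0.14), neither of them called. In PTPN21+VCR against NC+VCR only ALAS2 was called (0.79, lost with median ratio scaling and quantile normalization). The part of the erythroid genes in the results for PRDX2 and TXN was not tested. In bulk libraries, fewer cells of a kind and less RNA per cell cannot be told apart.

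The study's own question concerned PTPN21+VCR against NC+VCR, where PRDX6 alone passed the test. PRDX6 was at 94.0, 98.8 and 84.1 FPKM in PTPN21+VCR against 60.3, 66.7 and 63.1 FPKM in NC+VCR, a log2 fold change of 0.53 (SE 0.110, adjusted p = 0.0351 in limma). Of the 10 log2 fold changes 9 were positive, with a median of 0.36 against 0.03 over all genes. In 8 of 10 genes every PTPN21+VCR library lay above every NC+VCR library, and in 0 every one lay below. Groups did not overlap in 22.5% of all genes, counting both directions. Of all genes 1.82% passed the test in this comparison, 1% as higher and 0.82% as lower.

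PRDX4 had the largest difference, from 59.7, 82.4 and 77.4 FPKM to 98.7, 154 and 137 FPKM, but its log2 fold change of 0.81 missed the threshold (SE 0.193, adjusted p = 0.0573 in limma). TXN (0.56, adjusted p = 0.0918 in limma) and PRDX2 (0.42, adjusted p = 0.181 in limma) did not pass either. TXNRD1 was at 14.9 ± 2.06 and 14.0 ± 1.85 FPKM (SD, n = 3), with an interval of its log2 fold change from -0.79 to 0.63, and SOD1 at 647 ± 13.4 and 685 ± 41.8 FPKM (SD, n = 3). Under the other 3 scalings the 9 positive genes stayed positive except SOD1 with quantile normalization (-0.04). The call of PRDX6 was lost with median ratio scaling (adjusted p = 0.0771 in limma) and with no intensity trend (adjusted p = 0.103 in limma). It was lost as well with only the groups compared or the replicate block (adjusted p = 0.0730 and 0.0615 in limma). So it was in 9 of 12 fits that left out a library (any of NC+VCR, PTPN21+VCR or PTPN21+DMSO), although the log2 fold change of PRDX6 stayed between 0.48 and 0.60.

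**Figure D4:**
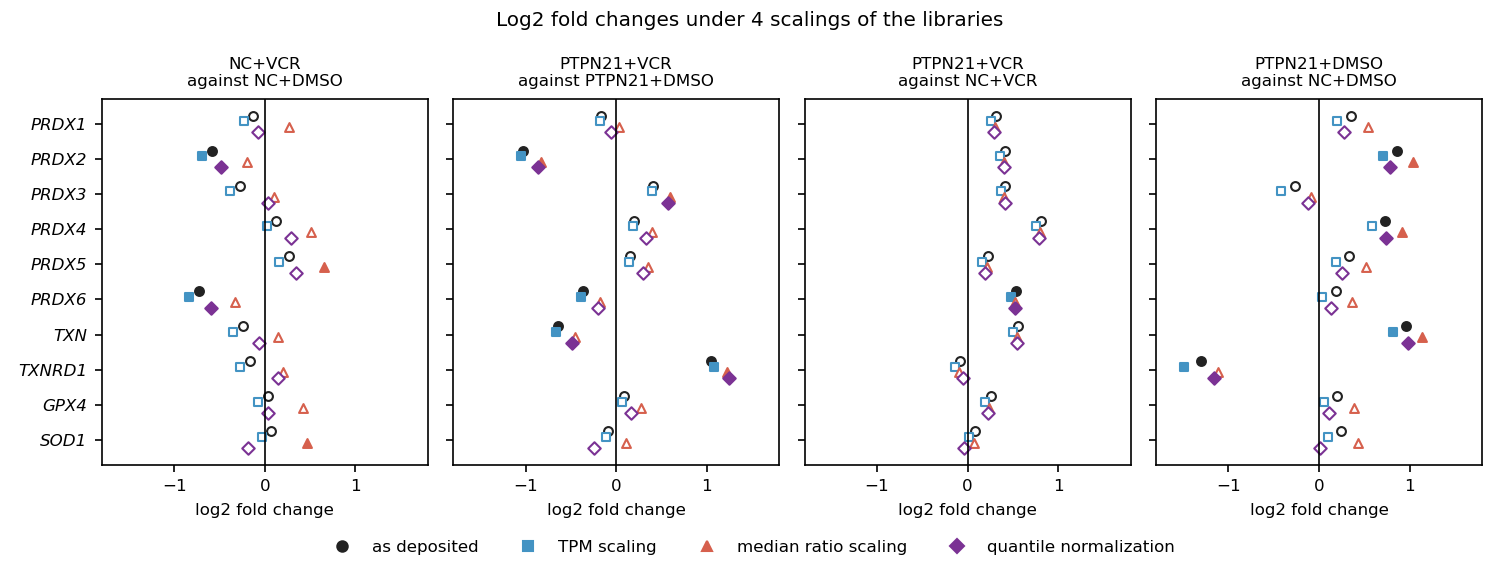
Log2 fold changes of the 10 genes with the FPKM as deposited, with TPM scaling, with median ratio scaling and with quantile normalization. Filled symbols passed an adjusted p of 0.05 in limma. In the first panel the median ratio values lie to the right of the deposited ones, and in the third panel the 4 scalings almost coincide.

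Whether VCR acted differently with and without PTPN21 was tested as an interaction. The median difference of log2 fold changes over all genes was 0.17. None of the 10 genes passed in limma, and 0.129% of all genes did (0.0259% with a positive and 0.104% with a negative difference). There were 3 members with an unadjusted p under 0.05: PRDX3 (difference of log2 fold changes 0.68, SE 0.235, adjusted p = 0.246 in limma), TXNRD1 (1.22, SE 0.463, adjusted p = 0.281 in limma) and PRDX6 (0.35, SE 0.156, adjusted p = 0.343 in limma). The falls of PRDX2 in the 2 backgrounds, -0.59 and -1.03, were therefore not shown to differ (difference -0.44, 95% interval -0.91 to 0.03). The same holds for TXN (difference -0.40, 95% interval -0.89 to 0.08).

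Ratios within a library do not depend on a factor applied to that library. The ratio of TXN to TXNRD1 in FPKM was 2.51 to 6.03 in NC+DMSO and 9.92 to 37.5 in PTPN21+DMSO. With VCR it was 3.01 to 4.85 in NC+VCR and 5.22 to 5.99 in PTPN21+VCR. On this ratio PTPN21+DMSO lay above the other 9 libraries, and the 2 VCR groups did not overlap. The ratio was not tested. It is made of the same values as the calls of TXN and TXNRD1, so it is no separate support for them. Its denominator, TXNRD1, ran from 3.70 to 10.9 FPKM within PTPN21+DMSO. PRDX2 made up 17.7 to 19.2% of the summed peroxiredoxin FPKM for NC+DMSO and 23.0 to 25.5% for PTPN21+DMSO. With VCR it made up 11.6 to 15.2% for NC+VCR and 13.4 to 14.2% for PTPN21+VCR. Both VCR groups lay under both DMSO groups in this share, which was not tested either. The sum itself was 682 ± 124, 929.7 ± 56.9, 609 ± 17.1 and 806 ± 54.0 FPKM in the same order of groups (SD, n = 3).

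The promoters of the genes that moved in opposite directions are shown because TXNRD1 and TXN share a pathway but not a direction. Of the 10 genes, 7 had entries among the RefSeq promoters of GRCh38.p14 (PRDX1, PRDX6 and SOD1 did not), with 11 start sites. The 250 bases before each start were searched on both strands for the core of the antioxidant response element bound by NRF2 (TGACNNNGC), the GC box (GGGCGG) and the CCAAT box (CCAAT). Capitals mark these matches, and each sequence runs 5′ to 3′ toward the start. The first is the upstream TXNRD1 start (chr12:104215529-104215778, plus strand), and the second is the inner TXNRD1 start (chr12:104286782-104287031, plus strand). The others are TXN (chr9:110256508-110256757, minus strand), PRDX2 (chr19:12801801-12802050, minus strand) and PRDX4 (chrX:23667243-23667492, plus strand).
TXNRD1 upstream start: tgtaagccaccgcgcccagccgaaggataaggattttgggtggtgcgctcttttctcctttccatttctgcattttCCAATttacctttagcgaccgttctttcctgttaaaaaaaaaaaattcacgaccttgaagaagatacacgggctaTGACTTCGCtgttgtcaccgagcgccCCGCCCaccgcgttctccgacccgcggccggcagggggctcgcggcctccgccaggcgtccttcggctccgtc
TXNRD1 inner start: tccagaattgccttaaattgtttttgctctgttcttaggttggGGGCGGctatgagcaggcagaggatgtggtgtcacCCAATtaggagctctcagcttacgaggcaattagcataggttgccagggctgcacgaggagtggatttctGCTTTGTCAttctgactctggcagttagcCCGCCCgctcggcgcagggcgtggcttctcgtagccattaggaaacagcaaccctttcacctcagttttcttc
TXN: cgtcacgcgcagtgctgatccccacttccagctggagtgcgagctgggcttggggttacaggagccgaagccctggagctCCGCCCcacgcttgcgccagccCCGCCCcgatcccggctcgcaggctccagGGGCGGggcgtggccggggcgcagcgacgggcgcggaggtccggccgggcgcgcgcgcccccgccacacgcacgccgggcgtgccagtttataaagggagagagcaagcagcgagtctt
PRDX2: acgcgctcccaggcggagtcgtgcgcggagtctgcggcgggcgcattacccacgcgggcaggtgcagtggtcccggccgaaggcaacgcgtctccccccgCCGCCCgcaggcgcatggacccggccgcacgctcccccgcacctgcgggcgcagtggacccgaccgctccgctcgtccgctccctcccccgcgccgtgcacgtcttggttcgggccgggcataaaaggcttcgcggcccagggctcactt
PRDX4: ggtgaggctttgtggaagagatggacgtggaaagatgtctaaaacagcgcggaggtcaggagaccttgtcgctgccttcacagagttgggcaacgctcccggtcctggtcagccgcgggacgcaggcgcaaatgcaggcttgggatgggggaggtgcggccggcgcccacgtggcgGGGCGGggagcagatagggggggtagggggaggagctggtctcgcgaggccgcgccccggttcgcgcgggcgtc

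Both TXNRD1 windows held 1 match to the antioxidant response core, beginning 99 bases before the upstream start on the forward strand and 102 bases before the inner start on the reverse strand. No other member window held one, and 10.9% of the 35116 promoters in the table did. TXN held 3 GC boxes, PRDX2 held 1 and PRDX4 held 1, and 42.6% of all promoters held at least 1. CCAAT boxes were found in both TXNRD1 windows and in none of the other 3 shown, against 32.0% of all promoters. These matches are letters in a window, and binding was not measured.

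Other genes of the same chemistry were read from 8 lists chosen by function. In the thioredoxin system, 7 of 16 tested genes passed with VCR in control cells, 3 higher and 4 lower, and 6 of 16 passed in PTPN21 cells, 3 in each direction, where 36.2% and 28.5% of all genes passed. The balance turned with the scaling: median ratio scaling gave 6 higher and 1 lower in control cells, as did quantile normalization, and 6 higher and 2 lower in PTPN21 cells. TXNIP, the inhibitor of thioredoxin, rose in both (log2 fold change 1.39 and 1.96), from 3.71 ± 0.857 to 11.2 ± 0.451 FPKM and from 2.38 ± 0.946 to 11.9 ± 1.87 FPKM (SD, n = 3). GLRX, a glutaredoxin, fell in both (-1.50 and -1.34), and these calls held under all 4 scalings. Of the 5 tested superoxide and peroxide removal genes, 1 fell in control cells and 3 in PTPN21 cells (1 with median ratio scaling or quantile normalization). CAT, which breaks down hydrogen peroxide, fell from 93.9 ± 2.78 to 52.6 ± 1.19 FPKM in control cells and from 118 ± 3.87 to 52.4 ± 2.36 FPKM in PTPN21 cells (SD, n = 3). GPX1, the cytosolic glutathione peroxidase, was listed at 0 in 10 of 12 libraries.

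The counts of the lists that follow are to be read beside all genes. With VCR 36.2% of all genes passed in control cells (28.3% as lower) and 28.5% in PTPN21 cells (19.3% as lower). NADPH supply genes fell in control cells, with 9 lower and 1 higher of 14 tested, but only 2 were lower with median ratio scaling. MTHFD1, a folate cycle enzyme, fell with VCR in both backgrounds (-1.17 and -1.19). TALDO1, of the pentose phosphate pathway, rose in control cells with VCR (0.59) and in PTPN21+DMSO against NC+DMSO (0.81). Of 21 tested glutathione genes, 8 passed with VCR in control cells, 7 of them lower (3 lower with median ratio scaling), and 7 passed in PTPN21 cells, 5 of them lower. GSTP1, a glutathione transferase, rose in PTPN21+DMSO (0.73) and fell with VCR in PTPN21 cells (-1.0). Of 11 tested lipid peroxide and ferroptosis genes, 6 fell in control cells (4 with median ratio scaling), and 5 fell and 1 rose in PTPN21 cells (2 and 4 with median ratio scaling). Among them the iron exporter SLC40A1 (-2.86) and the transferrin receptor TFRC (-2.14) fell in control cells under all 4 scalings. SLC40A1 also fell with VCR in PTPN21 cells (-1.99), and TFRC was lower in PTPN21+DMSO against NC+DMSO (-1.08), again under all 4 scalings.

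NRF2 is the factor that acts through the antioxidant response element. Of 18 tested regulators and targets, 5 passed with VCR in each background, where 36.2% (control cells) and 28.5% (PTPN21 cells) of all genes passed. They were 3 higher and 2 lower in control cells and 4 higher and 1 lower in PTPN21 cells (3 and 3 with TPM scaling). NFE2L2, which encodes NRF2, rose in both (1.01 and 1.51). FTL, ferritin light chain, rose in PTPN21+DMSO (0.91) and in PTPN21+VCR against NC+VCR (0.63, lost with median ratio scaling). HMOX1, a classical target, was below the filter. Of 20 selenoprotein genes, 7 passed with VCR in control cells, 4 higher and 3 lower (5 and 1 with median ratio scaling), and 5 in PTPN21 cells, 2 higher and 3 lower. SELENOF, an endoplasmic reticulum selenoprotein, rose in all 4 comparisons (0.81, 0.75, 0.95 and 1.00 in the order VCR in control cells, VCR in PTPN21 cells, PTPN21 under VCR and PTPN21 under DMSO). Of 5 tested superoxide and peroxide sources, NCF4, an NADPH oxidase subunit, rose and CYBA fell with VCR in both backgrounds, the calls of CYBA being lost with median ratio scaling. The median log2 fold changes of the 8 lists ran from -0.55 (NADPH supply) to -0.01 (NRF2) with VCR in control cells, beside -0.36 over all genes, and from -0.48 (superoxide and peroxide removal) to 0.17 (thioredoxin system) in PTPN21 cells, beside -0.17. Of the 110 genes tested over these lists, 46 passed with VCR in control cells (41.8%, beside 36.2% of all genes) and 39 in PTPN21 cells (35.5%, beside 28.5%). In PTPN21+VCR against NC+VCR 3 of the 110 passed (2.73%, beside 1.82% of all genes), all higher: SELENOF, FTL and GSTO1. The call of GSTO1 was lost with median ratio scaling and quantile normalization (adjusted p up to 0.0917 in limma), so that SELENOF alone was called under all 4 scalings. In PTPN21+DMSO against NC+DMSO 12 of the 110 passed (10.9%, beside 6.34% of all genes), 10 of them higher.

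Some readings may mix genes. PRDX1, PRDX2, PRDX3, PRDX4, TXN and SOD1 have annotated processed copies in the table (1, 4, 4, 1, 7 and 3), none with a mean of 1 FPKM, the highest being TXNP4 at 0.0558 FPKM. How reads shared with such copies were counted was not given in the sources used here. TXNRD1 (GENCODE 29, chromosome 12, 104215779 to 104350305, plus strand) contains RPL18AP3, a processed pseudogene on the same strand at 92.9 FPKM, well above TXNRD1 itself. PRDX2 (chromosome 19, 12796820 to 12801859, minus strand) overlaps HOOK2 on its own strand at 11.6 FPKM and an antisense gene at 3.47 FPKM. Reads in these overlaps cannot be told apart without the counting rule. The genes whose profile over the 12 libraries was most like a member, by root mean square difference of centred log2 values, were NDUFA8 (0.111) and MRPL14 (0.131) for PRDX2, RPL26L1 (0.158) and GTSF1 (0.167) for TXN, and RAD21 (0.237) and CCDC14 (0.243) for TXNRD1.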

How the data were processed

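RNA from 12 libraries was analysed, grouped by the sample labels into 4 groups of 3. The authors deposited 1 table of FPKM for 60671 genes, made by an external company. Per the labels and the submitters' processing notes, fastp and Bowtie2 were used with the build mm10, and the counting program and annotation are not given in the sources used here. Gene positions came from GENCODE 29 (GRCh38), in which 58453 identifiers (96.3%) have an entry.

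log2(FPKM + 1) was computed, the 11591 genes averaging 1 FPKM or more were kept, and 1 model of 4 group means was fitted with limma-trend (limma 3.58.1, R 4.3.3), with Benjamini-Hochberg adjustment over all genes kept. The script was tested on simulated data in which 200 of 11591 genes were changed in PTPN21+VCR against NC+VCR. It recovered 0% of them at a log2 change of 0.5, 65.5% at 1 and 96% at 2. False calls made up 6.43% of its calls at 1 and 4.95% at 2. The other comparisons were not simulated, so these rates do not describe them. In any comparison, a member that missed the threshold is not shown to be unchanged. The depth was estimated from steps of FPKM times length over single-exon genes, where 37.6 to 44.5% of low values lay within 0.1 of a whole step against 20% by chance.

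Alternatives changed the scaling (median ratios, TPM or quantile normalization), the pseudocount (0.1), the filter (none, or 5 FPKM), the trend (none), the libraries (only the groups compared, or leaving out each in turn) or added a replicate block. The members and lists were chosen with earlier results of these data known, and the erythroid list after seeing the data. The text names all 10 members, the cell type markers, up to 2 rises and 2 falls past the threshold per list and comparison, and the nearest profiles of the 3 members that varied most. Python 3.11.15 (pandas 2.3.3, numpy 2.4.6, matplotlib 3.10.9) was used for tables and plots.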

Additional observations from a re-analysis of the deposited data

How the results depend on the processing

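Over the 9 settings that changed the processing, 394 of the log2 fold changes of the members kept their direction and side of the threshold, 25 lost a call, 5 gained one and 16 changed sign. Leaving out 1 library at a time gave 539, 36, 5 and 20. Counts of calls follow. The cause of these changes was not tested.

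With VCR in control cells, member calls numbered 1 in place of 2 with only the groups compared. The call lost was that of PRDX2 (adjusted p = 0.0576 in limma). In PTPN21+VCR against NC+VCR they numbered 2 in place of 1 with a filter of 5 FPKM, and 0 with median ratio scaling, no intensity trend, only the groups compared or the replicate block. In PTPN21+DMSO against NC+DMSO they numbered 2 in place of 4 with no filter, no intensity trend or the replicate block, and 0 with only the groups compared. Leaving out 1 library at a time gave 2 to 3 calls for VCR in control cells, 2 to 4 for VCR in PTPN21 cells, 0 to 2 for PTPN21+VCR against NC+VCR, 0 for the interaction and 0 to 6 for PTPN21+DMSO against NC+DMSO. The most in the last of these came without NC+DMSO replicate 2, and the fewest without PTPN21+DMSO replicate 1.

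Signs changed only for log2 fold changes that were not called as deposited. With median ratio scaling, values for VCR in control cells became 0.27 for PRDX1, 0.10 for PRDX3, 0.14 for TXN and 0.20 for TXNRD1, those for VCR in PTPN21 cells 0.030 for PRDX1 and 0.10 for SOD1, and the interactions -0.12 for PRDX4 and -0.15 for GPX4. Quantile normalization gave 0.038 for PRDX3, 0.15 for TXNRD1 and -0.19 for SOD1 with VCR in control cells, -0.041 for SOD1 in PTPN21+VCR against NC+VCR and an interaction of 0.014 for PRDX1. TPM scaling gave -0.076 for GPX4 and -0.035 for SOD1 with VCR in control cells and an interaction of 0.049 for PRDX1.

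Leaving out 1 library at a time also moved signs. With VCR in control cells PRDX1 ran from -0.26 to 0.021 (above 0 without NC+DMSO replicate 2), and without NC+DMSO replicate 3 signs turned for PRDX4 (-0.032 to 0.26), TXNRD1 (-0.49 to 0.0080), GPX4 (-0.20 to 0.16) and SOD1 (-0.034 to 0.17). GPX4 ran from -0.045 to 0.16 with VCR in PTPN21 cells and from -0.024 to 0.33 in PTPN21+DMSO against NC+DMSO, and TXNRD1 from -0.19 to 0.017 in PTPN21+VCR against NC+VCR. Interactions ran from -0.18 to 0.094 for PRDX1, -0.064 to 0.26 for PRDX4, -0.29 to 0.027 for PRDX5 and -0.077 to 0.28 for GPX4.

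Over all genes, calls with VCR in control cells went from 4192 to 2674 with only the groups compared. Under the same setting, calls with VCR in PTPN21 cells went from 3308 to 4157. In PTPN21+VCR against NC+VCR they went from 211 to 118 with no filter, 344 with a filter of 5 FPKM, 72 with no intensity trend, 117 with only the groups compared and 74 with the replicate block. In PTPN21+DMSO against NC+DMSO they went from 735 to 177, 321 (no intensity trend), 40 and 242 under the same settings other than the filter of 5 FPKM, and for the interaction from 15 to 8 with no filter, a filter of 5 FPKM or the block and 9 with no intensity trend. Without single libraries the counts ran from 43 to 354 for PTPN21+VCR against NC+VCR. They ran from 67 to 1345 for PTPN21+DMSO against NC+DMSO and from 7 to 30 for the interaction. The share of interaction calls above 0 went from 20% to 36.4% with TPM scaling.

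No pairing by replicate number was seen: deviations of 18 same-numbered pairs correlated at -0.145 to 0.0583, with 0 above 0.1. The 36 other pairs correlated at -0.0978 to 0.133, with 3 above 0.1. With 3 libraries in a group this check is weak, and it cannot show how the libraries were prepared. The replicate block changed the member calls from 1 to 0 in PTPN21+VCR against NC+VCR and from 4 to 2 in PTPN21+DMSO against NC+DMSO, and TXNRD1 missed the threshold with VCR in PTPN21 cells. Depth is an estimate here, and its part in the results for the members was not tested.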
